A study of Mus musculus with 8 samples.

Results

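Deubiquitinating enzymes cut ubiquitin, or chains of it, from proteins, and so reverse the work of the ubiquitin ligases. The set described here was chosen by gene symbol from a table of liver mRNA. It took the genes named Usp, Otud, Otub and Uchl, plus 12 further genes of the Josephin, JAMM, UCH, OTU and USP families, and left out Usp18 and Usp9y. This rule was met by 80 of the 22481 genes, and 61 of them had at least 0.5 FPKM in at least 4 of the 8 samples. FPKM is fragments scaled for transcript length and sequencing depth, a level that can be compared between genes. One of the 61, Usp6nl, shares only the start of its symbol with the family. It encodes a protein that activates the hydrolysis of GTP by Rab proteins, and it is counted here but is no deubiquitinase. The rule also counts Cops5, which removes the ubiquitin-like protein NEDD8, and its catalytically inactive partner Cops6.

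Liver RNA came from 4 db/db and 4 lean samples, all labelled male. The db/db mouse has a mutation in the leptin receptor gene, and its obesity and diabetes make it a model of fatty liver. Lean samples carry the strain label C57BL/6, whereas the obese animals are labelled db/db with no background strain, so strain background and genotype cannot be told apart. No age, time of day of collection or identity of the animals is given in the sources used here, and the spread behind each p-value may thus be partly technical. The study concerns RPN11, the deubiquitinase of the proteasome lid, encoded by Psmd14, which the rule does not cover.

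Cells use deubiquitinases of several catalytic designs. The USP, UCH, OTU and Josephin (MJD) families are cysteine proteases, while JAMM enzymes are zinc metalloproteases. Some trim chains at the proteasome before a protein is degraded, some clear ubiquitin from histones, and others take apart the chains that carry inflammatory signals. Several of the genes are expressed in most tissues, and a smaller number, such as the Usp17-like genes, are known from few cell types.

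The libraries held 12174815 to 16171654 estimated fragments in protein-coding genes. The level of Lepr, the mutated gene, was 0.530 to 0.720 FPKM in db/db and 0.461 to 0.953 in lean, and a level for the whole gene does not check a mutation that alters splicing. All 8 hepatocyte markers listed were tested. Their summed level was 9289 to 11443 FPKM in db/db and 27258 to 33405 in lean, and 3 of them, Apoa1, Ttr and Serpina1c, fell. Most of the gap in the sum was Apoa1, an apolipoprotein, at 982 ± 274 FPKM in db/db against 15006 ± 2440 in lean (SD, n = 4). The other 5 were not called, among them Apob at 998 ± 59.9 and 999 ± 51.7 FPKM (SD, n = 4; adjusted p = 0.988). The median log2 fold change of the 8 was -0.28, and 10.9% of all genes tested were called lower. A second test, voom on estimated fragments, called 4 of the 8 lower and 0 higher, against 14.0% of all genes lower. Hnf4a was among these 4 (voom adjusted p = 0.0371, limma adjusted p = 0.0766). Fewer cells of a type and less RNA per cell cannot be told apart in bulk tissue.

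Of the 61 tested members, 9 were higher and 3 were lower in db/db liver (limma on log2(FPKM + 1), adjusted p below 0.05 over all 10943 genes tested). The members that rose were Usp38, Usp22, Usp20, Tnfaip3, Usp32, Uchl5, Usp15, Usp14 and Usp40. Of these, Tnfaip3 passed the level filter through its db/db samples. Those that fell were Josd2, Usp16 and Usp48. The called share of members was 19.7%, against 26.4% of all genes tested. By direction, 15.5% of all genes were called higher and 10.9% lower. The median log2 fold change was 0.12 over the members and 0.041 over all genes, and 43 members (70.5%) had a change above 0, against 54.4% of all genes. The FPKM of 17 members (27.9%) did not overlap between the groups, against 28.4% of all genes. Changes were small. Of the 12 called members 10 differed by less than 2-fold in FPKM, and 46 of the 49 others lay within 1.5-fold. The number called higher was 5 without db/db 1, 5 without db/db 2, 4 without db/db 4, 5 without lean 1 and 5 without lean 3. The number called lower was 1 without db/db 4, 1 without lean 1 and 1 without lean 2.

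**Figure D1:**
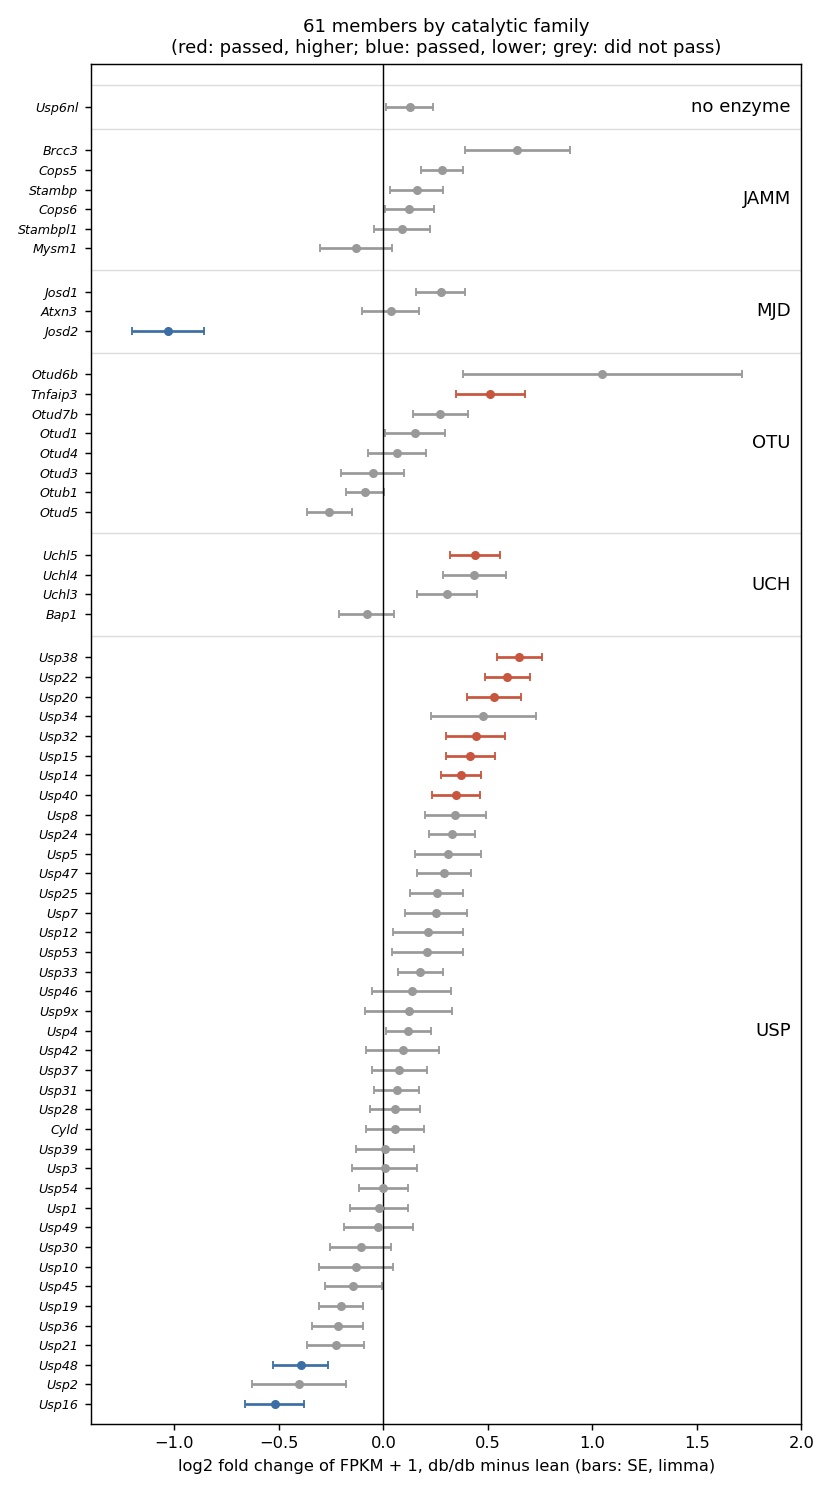
Log2 fold change of FPKM + 1 (x axis, db/db minus lean; bars are the limma SE, n = 4 each) for the 61 tested members, grouped by catalytic family. The 9 red points passed the test as higher and the 3 blue points as lower, with Josd2 at -1.03 furthest to the left, while Otud6b at 1.05 has the widest bar and did not pass.

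Promoter sequences of 4 called members follow, chosen after their values and motif matches were seen. Josd2 and Usp38 had the smallest adjusted p of the members that fell and rose, and Uchl5 and Usp20 were the called members with a match to TGACNNNGC. They are the 250 bases before the RefSeq start (GRCm38.p6), read on the strand of the gene, and 49 of the 61 members had an entry. Capitals mark matches on either strand to 8 motifs, which were the GC box GGGCGG, the CCAAT box, the E-box CACGTG, then TGACNNNGC (the core of the antioxidant response element), TGACGTCA (the cyclic AMP response element), and, by name, the NF-kB, NRF1 and DR1 motifs. Josd2 lies at chr7:44467730-44467979 on the plus strand, Usp38 at chr8:81014907-81015156 on the minus strand, Uchl5 at chr1:143777028-143777277 on the plus strand and Usp20 at chr2:30982029-30982278 on the plus strand. The Usp38 start used by RefSeq lies inside the locus that the table gives for the gene.
Josd2: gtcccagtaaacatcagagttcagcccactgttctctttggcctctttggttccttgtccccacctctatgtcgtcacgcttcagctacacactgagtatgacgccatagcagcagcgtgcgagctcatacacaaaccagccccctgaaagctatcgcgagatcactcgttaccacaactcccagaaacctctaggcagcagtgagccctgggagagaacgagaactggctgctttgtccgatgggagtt
Usp38: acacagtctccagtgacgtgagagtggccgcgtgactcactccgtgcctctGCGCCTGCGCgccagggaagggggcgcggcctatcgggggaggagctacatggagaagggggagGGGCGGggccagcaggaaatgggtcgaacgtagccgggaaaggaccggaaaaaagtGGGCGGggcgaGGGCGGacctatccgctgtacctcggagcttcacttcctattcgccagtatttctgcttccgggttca
Uchl5: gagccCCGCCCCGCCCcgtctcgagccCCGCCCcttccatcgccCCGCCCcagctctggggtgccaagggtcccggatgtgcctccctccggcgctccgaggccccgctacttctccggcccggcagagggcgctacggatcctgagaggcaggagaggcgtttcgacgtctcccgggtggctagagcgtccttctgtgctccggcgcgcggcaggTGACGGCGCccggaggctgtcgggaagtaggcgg
Usp20: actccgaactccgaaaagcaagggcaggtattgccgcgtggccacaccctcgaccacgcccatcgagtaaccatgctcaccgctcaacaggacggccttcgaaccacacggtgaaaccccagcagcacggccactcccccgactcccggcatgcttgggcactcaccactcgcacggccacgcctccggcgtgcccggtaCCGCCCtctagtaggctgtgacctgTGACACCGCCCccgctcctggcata

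The window of Josd2 held none of the 8 motifs. Uchl5 and Usp20 each held TGACNNNGC, starting 34 and 25 bases before the start, and in Usp20 the match overlapped a GC box. Usp38 held 3 GC boxes and 1 match to the NRF1 motif. Of 32851 promoter entries of all genes, 32.7% held GGGCGG, 10.2% held TGACNNNGC and 3.74% held the NRF1 motif. Among the 49 members with an entry these numbers were 38, 10 and 4, and among the 10 called members with an entry they were 6, 2 and 2. The percentages are over entries of all genes, expressed or not. Members had passed the level filter, and a member was counted if any of its entries held the motif. The 2 kinds of number are thus not directly comparable, and enrichment was not tested. CACGTG was present in 10 members and in 6.02% of all entries, CCAAT in 11 members and 33.8%, and the NF-kB motif in 1 member and 1.21%. TGACGTCA and the DR1 motif, in 1.55% and 0.0335% of all entries, were in no member. A match is a stretch of letters and does not show that a factor binds.

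The first question was how the other deubiquitinases of the proteasome behaved beside Psmd14. Both of them rose. Usp14 (ENSMUSG00000047879, chromosome 18, 9958180 to 10045119, minus strand), which trims ubiquitin chains on the regulatory particle, had 21.8, 24.5, 21.7 and 22.8 FPKM in db/db 1 to 4. In lean 1 to 4 it had 16.1, 17.3, 18.8 and 17.0 FPKM. The groups did not overlap, and the rise was 1.31-fold (log2 fold change 0.37, SE 0.096, adjusted p = 0.0162). Uchl5 (ENSMUSG00000018189, chromosome 1, 143777278 to 143807466, plus strand) docks on the proteasome through Adrm1. It had 11.9, 13.4, 12.0 and 15.6 FPKM in db/db 1 to 4 and 10.4, 9.67, 9.30 and 8.46 in lean 1 to 4. Every db/db sample lay above every lean sample, with a rise of 1.40-fold (log2 fold change 0.44, SE 0.12, adjusted p = 0.0199).

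On estimated fragments Usp14 and Uchl5 rose as well. Usp14 rested on 512 to 920 fragments per library and Uchl5 on 229 to 475. Voom gave log2 fold changes of 0.36 and 0.40 (adjusted p = 0.0119 and 0.0366). Psmd14 rose 1.48-fold in FPKM (adjusted p = 0.0171, lost without db/db 2 or db/db 4), with a voom log2 fold change of 0.58 (adjusted p = 0.00201). The sizes of the 3 changes were not tested against each other. The Usp14 call was lost without db/db 2 (adjusted p = 0.0547) and without lean 1 (adjusted p = 0.0525). Its locus is shared with Thoc1 in the table. The Uchl5 call was lost without db/db 2, without db/db 4 and without lean 4 (adjusted p = 0.0520, 0.0592 and 0.0529), and with a replicate block (adjusted p = 0.0548). Adrm1, Psmd7 and the other partners are counted with their lists below.

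**Figure D2:**
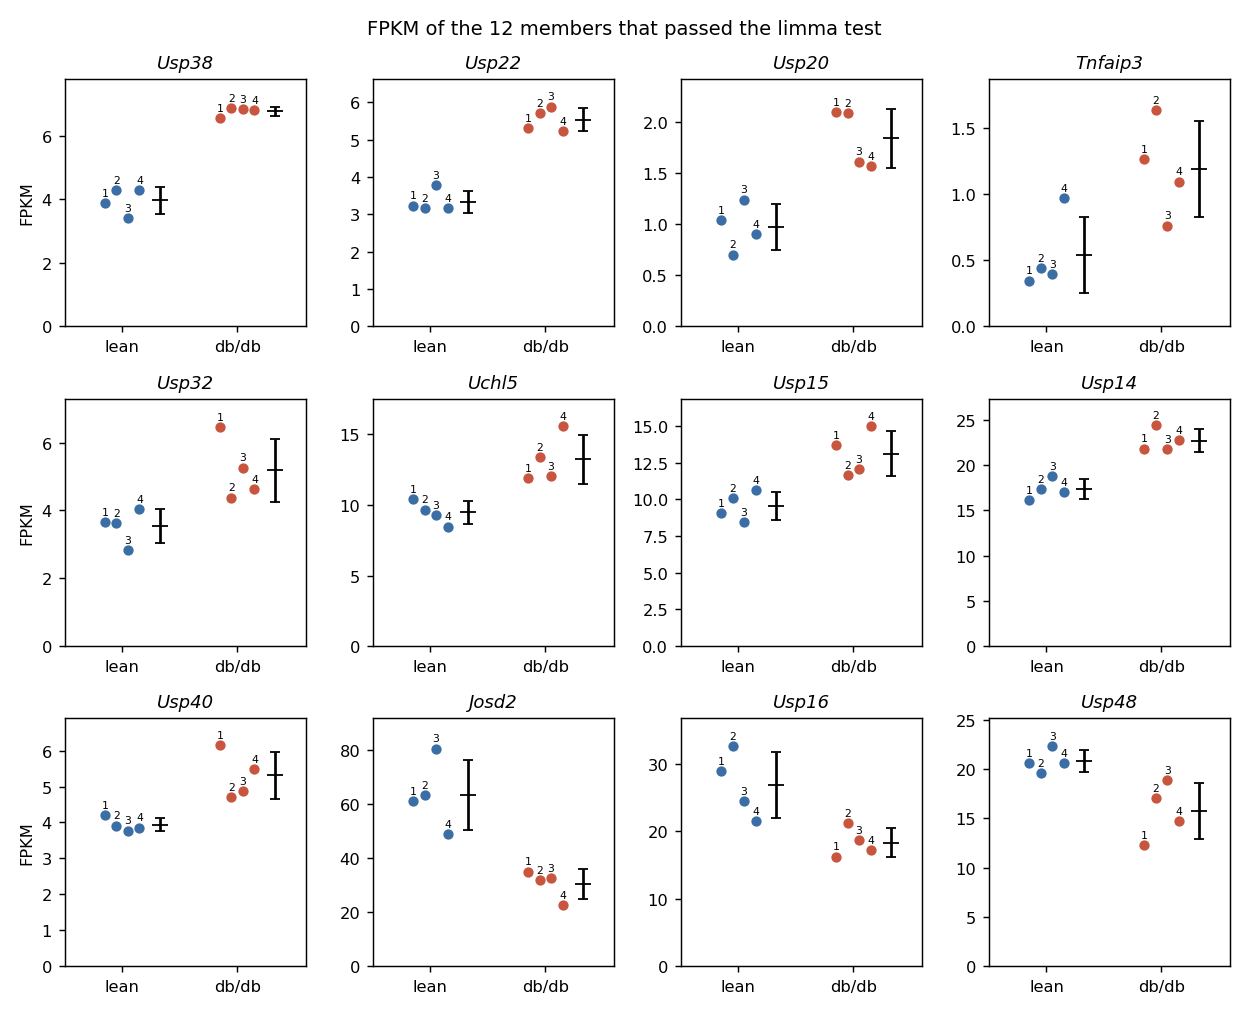
FPKM of each of the 12 called members (y axis from 0; points are samples, numbered 1 to 4, with the mean and SD beside each group). In 11 panels the lean and db/db points do not overlap, and in Tnfaip3 lean 4 at 0.969 FPKM lies above db/db 3 at 0.763.

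USP enzymes made up 39 of the tested members, with 7 higher and 2 lower. Their called share was 23.1%, against 26.4% of all genes tested. Usp38 (ENSMUSG00000038250, chromosome 8, 80980734 to 81038584, minus strand), linked to control of the kinase TBK1 in antiviral signalling, had the smallest adjusted p of the members that rose. It had 6.56, 6.87, 6.83 and 6.82 FPKM in db/db 1 to 4 and 3.89, 4.29, 3.41 and 4.28 in lean 1 to 4. All db/db samples (SD 0.144 FPKM) lay above the highest lean sample, and the rise was 1.71-fold (log2 fold change 0.65, SE 0.11, adjusted p = 0.00159). Usp22 (ENSMUSG00000042506, chromosome 11, 61151785 to 61175055, minus strand) is the deubiquitinase of the SAGA complex, where it acts on histone H2B. It had 5.31, 5.71, 5.89 and 5.24 FPKM in db/db and 3.24, 3.17, 3.78 and 3.17 in lean. The groups did not overlap, and the rise was 1.66-fold (log2 fold change 0.59, SE 0.11, adjusted p = 0.00267).

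Usp38 and Usp22 were called in all 20 alternative settings run. On estimated fragments they rose with log2 fold changes of 0.71 and 0.62 (voom adjusted p = 0.000722 and 0.00247), on at least 251 and 206 fragments per library. Usp20 (ENSMUSG00000026854, chromosome 2, 30982279 to 31023586, plus strand), which is known in mouse liver for stabilizing HMG-CoA reductase after feeding, was lower in level. It had 2.10, 2.09, 1.61 and 1.57 FPKM in db/db and 1.04, 0.702, 1.24 and 0.899 in lean. Its rise was 1.9-fold without overlap (log2 fold change 0.53, SE 0.13, adjusted p = 0.0126). On fragments, 51.3 to 163 per library, it was 1.43-fold higher and not called (voom adjusted p = 0.0625), with db/db 2 at 7.72 CPM and lean 3 at 7.70. CPM is estimated fragments scaled to library size, with sizes from median ratios.

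Usp15, Usp32 and Usp40 rose by less and less firmly. Usp15, which acts on the TGF-beta receptor pathway, had 13.7, 11.7, 12.1 and 15.0 FPKM in db/db and 9.06, 10.1, 8.47 and 10.6 in lean (1.37-fold, adjusted p = 0.0256). Without db/db 1, db/db 4, lean 1 or lean 3 that call was lost (adjusted p = 0.0545, 0.0765, 0.0675 and 0.0593). Usp32, a membrane-bound enzyme of the Golgi and endosomes, had 6.45, 4.38, 5.26 and 4.63 FPKM in db/db and 3.66, 3.62, 2.82 and 4.03 in lean (1.47-fold, adjusted p = 0.0410). The highest of its values was in db/db 1. Usp40 had 6.16, 4.71, 4.89 and 5.49 FPKM in db/db and 4.20, 3.91, 3.77 and 3.86 in lean (1.35-fold, adjusted p = 0.0456).

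None of these groups overlapped, but Usp40 was called in 7 and Usp32 in 9 of 20 alternatives. The Usp40 call was lost without any 1 library, at adjusted p = 0.0542 (without db/db 2) to 0.108 (without db/db 1). The Usp32 call was lost without db/db 1, 3 or 4 (adjusted p = 0.0973, 0.0820 and 0.0572) and without lean 1, 2 or 3 (adjusted p = 0.0730, 0.0696 and 0.0975). With median-ratio scaling of FPKM the adjusted p was 0.0609 for Usp32 and 0.0721 for Usp40. Sample db/db 1 was the highest of the 4 db/db samples in 30 of the 61 members (49.2%), against 33.3% of all genes tested. Leaving out db/db 1 also lowers the number of samples, as leaving out any library does. Calls lost in that way do not measure the part of db/db 1 alone.

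Of 8 OTU genes tested 1 was called (12.5%), against 26.4% of all genes tested. It was Tnfaip3, which encodes A20, an OTU enzyme that damps signalling to NF-kB. Its FPKM in db/db 1 to 4 was 1.27, 1.64, 0.763 and 1.10, and in lean 1 to 4 it was 0.347, 0.441, 0.398 and 0.969. Tnfaip3 passed the level filter through db/db, since lean 4 was the only lean sample at 0.5 FPKM or more, and with no filter it was not called (adjusted p = 0.0639). The groups overlapped through lean 4 (exact 2-sided permutation test p = 0.0571), and the rise was 2.21-fold (log2 fold change 0.51, SE 0.16, adjusted p = 0.0408). The same library did not stand apart in fragments. Tnfaip3 (ENSMUSG00000019850, chromosome 10, 19000910 to 19015657, minus strand) had 113, 126, 55.0 and 76.0 estimated fragments in db/db and 27.0, 28.0, 27.0 and 22.0 in lean. On that measure the groups were apart, with 4.13 to 8.46 CPM against 1.74 to 2.35, a 3.01-fold rise (voom log2 fold change 1.55, SE 0.31, adjusted p = 0.00328; exact permutation p = 0.0286, the smallest that 4 against 4 can give). The FPKM call was lost without db/db 1, 2 or 4 (adjusted p = 0.0815, 0.107 and 0.0736) and without lean 1, 2 or 3 (adjusted p = 0.105, 0.0869 and 0.0943). It was also lost after quantile normalization (adjusted p = 0.0660) and with the replicate block (adjusted p = 0.0582), and stood in 10 of 19 alternatives.

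Immune cells also express Tnfaip3, and the part of such cells in its rise was not tested. Of 11 Kupffer cell and macrophage markers tested, 4 fell (Clec4f, Marco, C1qa and Folr2), 0 rose and 7 were not called, among them Csf1r and Cd68 (adjusted p = 0.904 and 0.92). C1qb and C1qc, also among the 7, were lower by voom (voom adjusted p = 0.0338 and 0.0295). Voom called 6 of the 11 markers lower and 0 higher, and their median limma log2 fold change was -0.43. Their summed level was 138.5 to 198.2 FPKM in db/db and 195.2 to 306.3 in lean. Markers of T and B cells summed to 0.770 to 1.20 FPKM in db/db and 2.20 to 5.97 in lean, and those of neutrophils to 2.15 to 11.4 and 6.47 to 72.9, with Ly6g listed at 0 in every sample. The highest neutrophil sum was in lean 3. Limma called 0 of 1 tested marker of T and B cells and 0 of 3 of neutrophils, and voom 0 and 1. Of 16 genes that respond to NF-kB, 1 rose and 3 fell, with a median log2 fold change of 0.031. For all genes tested, limma called 15.5% higher and 10.9% lower, and voom 15.0% and 14.0%. Tnip1, a partner of A20, rose 2.08-fold from 1.99 ± 0.575 to 4.14 ± 0.785 FPKM (SD, n = 4; adjusted p = 0.00704). Bcl3, an atypical inhibitor of NF-kB, fell from 14.0 ± 1.99 to 6.42 ± 1.78 FPKM (SD, n = 4; adjusted p = 0.00168).

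Josd2 had the largest fall of the called members. It is a small Josephin-domain enzyme related to ataxin-3 (ENSMUSG00000038695, chromosome 7, 44467980 to 44471652, plus strand). Its FPKM was 34.9, 31.9, 32.5 and 22.4 in db/db 1 to 4 and 61.0, 63.3, 80.5 and 48.7 in lean 1 to 4. The lowest lean sample was well above the highest db/db sample, and the level in lean was 2.08-fold that in db/db (log2 fold change -1.03, SE 0.17, adjusted p = 0.00158). On fragments, 248 to 687 per library, the log2 fold change was -0.97 (voom adjusted p = 0.0013). Josd2 was called in all 20 alternatives. The other Josephin genes were not called. Josd1 averaged 9.59 ± 0.943 FPKM in db/db against 7.77 ± 0.866 in lean, and Atxn3, the gene of ataxin-3, averaged 3.11 ± 0.323 and 3.04 ± 0.568 (SD, n = 4; adjusted p = 0.116 and 0.879).

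Usp16 and Usp48, nuclear enzymes that act on histone H2A, fell in FPKM only. Usp16 had 16.2, 21.2, 18.7 and 17.2 FPKM in db/db and 28.9, 32.6, 24.5 and 21.4 in lean (log2 fold change -0.52, SE 0.14, adjusted p = 0.0209). In CPM it had 43.6, 33.6, 28.7 and 33.3 in db/db and 38.8, 41.9, 34.2 and 37.6 in lean. There the groups overlapped and the difference was not called (voom log2 fold change -0.14, adjusted p = 0.469). Usp48 had 12.3, 17.1, 18.9 and 14.7 FPKM in db/db and 20.6, 19.6, 22.4 and 20.6 in lean (log2 fold change -0.40, SE 0.13, adjusted p = 0.0469). Its voom log2 fold change was -0.17 (adjusted p = 0.233).

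Usp16 was also lost without db/db 4, lean 1 or lean 2 (adjusted p = 0.0549, 0.0604 and 0.0553). Usp48 was lost without every library but db/db 3, at adjusted p = 0.0612 (without db/db 2) to 0.109 (without db/db 4). It was also lost with no filter, without the trend, with library weights and with the replicate block (adjusted p = 0.0657, 0.0534, 0.0677 and 0.0592), and was called in 8 of 20 alternatives. The locus of Usp16 is shared with Cct8 in the table. Bap1, another enzyme that clears ubiquitin from histone H2A, was not called, at 6.03 ± 0.663 FPKM in db/db against 6.45 ± 0.975 in lean (SD, n = 4; adjusted p = 0.694).

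**Figure D3:**
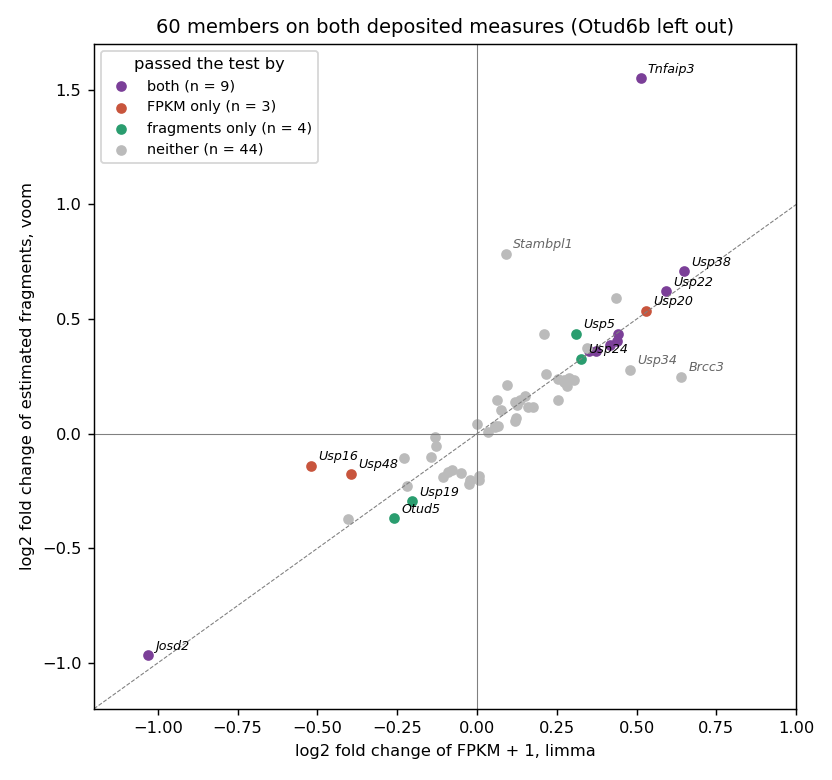
Log2 fold change on FPKM + 1 (x axis, limma) against that on estimated fragments (y axis, voom) for 60 members, with equality as the dashed line. Colours give the test passed, with 9 members called by both, 3 by FPKM alone and 4 by fragments alone. The called points without a label, at 0.35 to 0.44 on the x axis, are Usp14, Usp15, Usp32, Usp40 and Uchl5.

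The deposited FPKM and fragments gave partly different calls. Voom on fragments called 13 members, 10 higher and 3 lower, and over all genes it called 29.0%, with 15.0% higher and 14.0% lower. In fragments 42 members (68.9%) had a change above 0, against 49.6% of all genes, and in CPM the groups did not overlap in 16 members (26.2%), against 30.3%. Of the called members 9 were called by both measures. Usp16, Usp48 and Usp20 were called by FPKM alone. Called by fragments alone were Usp24, Usp5, Otud5 and Usp19. Over all genes 23.5% were called by both measures, 2.94% by FPKM alone and 5.51% by fragments alone.

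Usp24, one of the largest USP proteins, had 6.29, 5.67, 4.83 and 5.30 FPKM in db/db and 4.06, 4.34, 4.19 and 4.14 in lean. The groups were apart on both measures (adjusted p = 0.0523 in FPKM, voom adjusted p = 0.0264). Usp5, which takes apart free ubiquitin chains, had 52.3, 39.2, 35.7 and 48.6 CPM in db/db and 29.9, 28.1, 33.8 and 37.8 in lean (voom adjusted p = 0.0454, FPKM adjusted p = 0.177). Its groups overlapped. Otud5, an OTU enzyme known for restraining interferon production, was lower at 36.4, 41.4, 41.8 and 35.6 CPM in db/db against 52.0, 58.0, 45.3 and 45.5 in lean (voom log2 fold change -0.37, adjusted p = 0.033; FPKM adjusted p = 0.0996). Usp19, an enzyme with a form anchored in the endoplasmic reticulum, had 45.6, 38.0, 42.5 and 44.7 CPM against 49.2, 53.3, 56.4 and 50.7 (voom adjusted p = 0.0484, FPKM adjusted p = 0.181).

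CPM divided by FPKM scales with the transcript length that a library's FPKM was computed with. Each library's ratios were divided by their median over all genes tested, then multiplied by the mean of the 8 medians. The values given are these scaled ratios and not plain quotients, and their span over the 8 libraries differed between members. For Usp38 the scaled ratio was 5.63 to 5.69 in all 8 libraries. For Usp16 it was 2.79, 1.66, 1.51 and 1.98 in db/db 1 to 4 and 1.30, 1.27, 1.36 and 1.74 in lean 1 to 4. For Usp48 it was 2.85, 2.25, 1.93 and 2.14 in db/db and 1.69, 2.04, 1.73 and 1.91 in lean. For Usp20, also called by FPKM alone, it was 4.72, 3.88, 4.72 and 6.01 in db/db and 6.00 to 6.05 in lean. These genes have several coding transcripts in GENCODE M21, 3 of 354 to 3205 bases for Usp16 and 13 of 467 to 5741 bases for Usp48. Usp20 has 8 of 430 to 5088 bases. For Tnfaip3 the ratio was 4.81 to 5.42 in 7 libraries and 1.77 in lean 4, the library whose FPKM overlapped db/db. Over the 61 members the ratio spanned more than 1.5-fold in 11 (18.0%), against 15.1% of all genes, and the groups did not overlap in 5 (8.20%), against 4.98%. Transcript levels were not analysed here, so a change in the mix of transcripts was not tested.

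**Figure D4:**
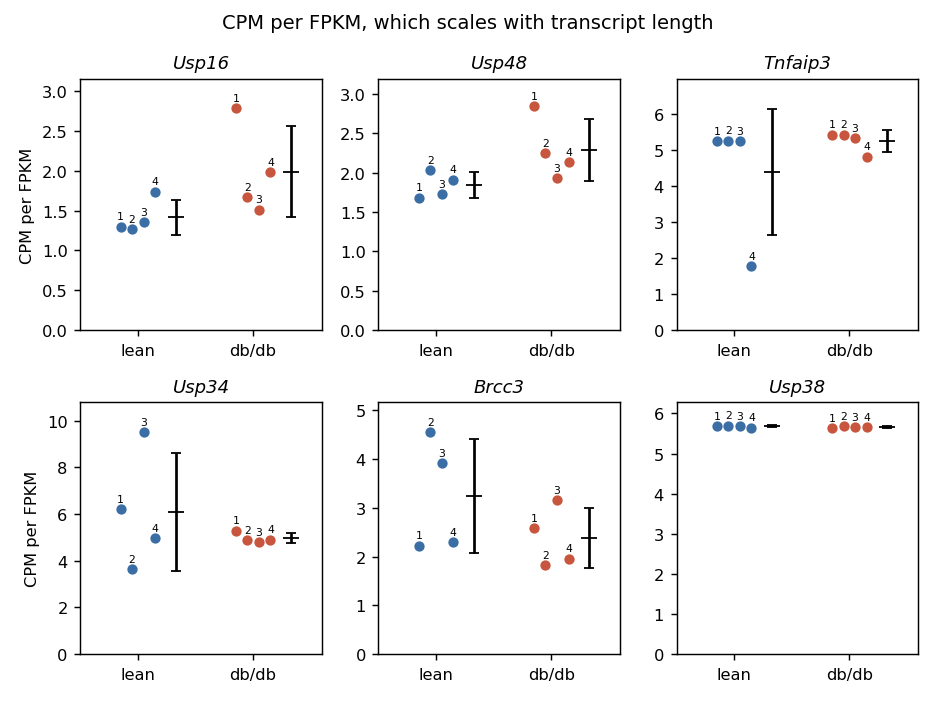
CPM per FPKM (y axis from 0, proportional to the transcript length behind the FPKM) in each sample for 6 members. Each library was scaled to the same median ratio over all genes tested. Mean and SD are beside each group (n = 4). Usp38 stays at 5.63 to 5.69, while Usp34 reaches 9.51 in lean 3 and Tnfaip3 falls to 1.77 in lean 4.

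Usp34 and Brcc3, chosen after their values were seen, show the same pattern without a call. Usp34, a large enzyme of the Wnt pathway, had 11.6, 10.6, 11.2 and 12.2 FPKM in db/db and 6.78, 13.8, 4.37 and 9.18 in lean. The lean values differed widely in FPKM, yet lay between 42.7 and 51.1 CPM. Its difference was not called on either measure (adjusted p = 0.19 in FPKM, voom adjusted p = 0.0694), but without lean 2 it was called in FPKM (adjusted p = 0.0269). Brcc3, the enzyme of the BRISC and BRCA1-A complexes, had 12.7, 15.5, 8.12 and 13.0 FPKM in db/db and 9.73, 6.03, 4.59 and 10.6 in lean. It was 1.59-fold higher in FPKM and 1.18-fold higher in CPM, with overlap on both (adjusted p = 0.0855, voom adjusted p = 0.214). In FPKM it was called in 3 of 20 alternatives.

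Among JAMM genes 0 of 6 were called by limma or by voom, against 26.4% of all genes tested by limma and 29.0% by voom. Cops6, the catalytically inactive partner subunit in the COP9 signalosome, had the highest mean of the JAMM genes, at 69.5 ± 7.20 FPKM in db/db against 63.9 ± 7.70 in lean (SD, n = 4; adjusted p = 0.476). Its locus is shared with Ap4m1, Mcm7 and Taf6 in the table. Cops5, the subunit that removes the ubiquitin-like protein NEDD8 from cullins, had 37.6, 39.9, 37.2 and 41.6 FPKM in db/db and 34.6, 30.4, 28.5 and 34.7 in lean. The groups did not overlap, with a log2 fold change of 0.28 (SE 0.10, adjusted p = 0.0641), and no alternative called it. Of the 8 other COP9 subunits tested, 2 rose and 0 fell, with a median log2 fold change of 0.16. Among all genes tested, limma called 15.5% higher and 10.9% lower. Cops4 rose from 14.6 ± 1.80 to 20.9 ± 2.42 FPKM and Cops7a from 27.8 ± 1.40 to 35.1 ± 0.614 (SD, n = 4; adjusted p = 0.0139 and 0.0194). The Cops7a call was lost with voom (adjusted p = 0.112), with the replicate block and without lean 2.

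Levels of the 61 members ranged from a mean of 0.460 FPKM for Stambpl1 to 66.7 for Cops6. Means above 20 FPKM were found in 7 genes, means from 5 to 20 in 26 and lower ones in 28. Usp10, which acts on p53 and in stress granules with G3bp1, was the highest USP gene at 63.1 ± 10.4 FPKM in db/db against 70.0 ± 15.9 in lean (SD, n = 4; adjusted p = 0.622). Its row covers a merged locus that 75 rows of the table share, so its level is uncertain, and it cannot be ranked against Cops6, which was higher in db/db and lower in lean, by less than the spread between samples. The highest OTU gene was Otub1, which also inhibits ubiquitin-conjugating enzymes, at 17.1 ± 0.615 and 18.2 ± 0.894 FPKM (SD, n = 4; adjusted p = 0.508). Uchl3, the highest UCH gene, had 19.8 ± 1.34 and 16.1 ± 3.48 FPKM (SD, n = 4; adjusted p = 0.141) and was called only without lean 1 (adjusted p = 0.0382).

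Uchl3 shares sequence with Uchl4, a related mouse gene. In GENCODE M21, 26.7% of the 50-base words of Uchl3 transcripts also occurred in Uchl4, and 26.2% of those of Uchl4 occurred in Uchl3, so reads may be shared between them. Uchl4 had 17.0 to 52.0 fragments per library and a log2 fold change of 0.44 (adjusted p = 0.058), and without lean 4 it was called (adjusted p = 0.0228). No such words were shared by 41 of the 61 members, and more than 5% were shared by 7. A locus is shared with another row by 17 members (27.9%), against 30.2% of all genes tested.

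Usp2, a target of the circadian clock in liver, was singled out after its values were seen. It had 23.5, 16.0, 13.7 and 15.6 FPKM in db/db and 18.4, 18.9, 36.7 and 20.5 in lean. Only lean 3 lay above db/db 1, and the difference was not called (log2 fold change -0.41, adjusted p = 0.213). Of 17 clock genes tested, 4 rose and 1 fell, with a median log2 fold change of 0.11. Among all genes tested, 15.5% were called higher and 10.9% lower, with a median of 0.041. Dbp, a clock output factor, fell from 121.7 ± 43.0 to 46.5 ± 7.69 FPKM, and Nfil3, its antagonist, rose from 6.23 ± 1.92 to 12.1 ± 1.84 (SD, n = 4; adjusted p = 0.00249 and 0.0053). The time of collection is not given, so a difference in time between groups was not tested.

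For the list counts that follow, limma called 15.5% of all genes tested higher and 10.9% lower, and voom 15.0% and 14.0%. Of 18 cofactors and partners tested, 2 rose and 1 fell, and those that rose were Tnip1 and Tax1bp1, a ubiquitin-binding autophagy receptor. Tax1bp1 went from 45.2 ± 5.24 to 60.0 ± 3.54 FPKM (SD, n = 4; adjusted p = 0.0176), a call lost without db/db 2 or lean 1. Of 6 partners in BRISC and BRCA1-A, 0 were called by limma or voom. Of 10 genes listed as deubiquitinases outside the rule, 0 were called by limma and 1, Senp8, rose by voom (voom adjusted p = 0.0467). Senp8 encodes a protease of NEDD8 and is no deubiquitinase. Of 6 proteasome and other JAMM-domain genes 1 rose, Psmd14, and 1 fell, Eif3f, a subunit of a translation initiation factor, from 29.2 ± 3.72 to 20.0 ± 2.92 FPKM (SD, n = 4; adjusted p = 0.0131).

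Rps27a, which encodes ubiquitin fused to a ribosomal protein, had 139.7, 158.5, 190.1 and 206.1 FPKM in db/db and 329.7, 277.3, 348.2 and 295.3 in lean. Every lean sample lay above every db/db sample (log2 fold change -0.86, adjusted p = 0.00127). The polyubiquitin gene Ubb averaged 149.4 ± 22.8 FPKM in db/db and 162.1 ± 26.4 in lean (SD, n = 4; adjusted p = 0.583). Of 34 activating and conjugating enzymes (E1 and E2), 2 rose and 1 fell, while 15.5% of all genes tested were called higher and 10.9% lower. Ube2e2 rose 2.65-fold from 9.24 ± 0.891 to 24.5 ± 2.98 FPKM, and Ube2s, which extends chains with the anaphase-promoting complex, fell from 31.2 ± 5.07 to 17.5 ± 1.33 (SD, n = 4; adjusted p = 2.96e-05 and 0.00106).

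The 19 members below the filter included 11 listed at 0 in every sample. These were Otud6a, Otud7a, Usp26, Usp29, Usp44, Usp51 and the 5 genes of the Usp17-like family. Otub2, Usp11, Usp13, Usp27x, Usp35, Usp43, Usp50 and Uchl1 had values above 0. Just inside the filter, with 4 samples at 0.5 FPKM or more, were Stambpl1, Usp31 and Usp49, at 0.236 to 0.721, 0.368 to 0.642 and 0.224 to 1.04 FPKM. Just outside, with 2 such samples, were Usp50 at 0.0720 to 1.47, Usp35 at 0.0943 to 0.699 and Otub2 at up to 0.835 FPKM.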

How the data were processed

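Liver RNA of 4 db/db and 4 lean male samples, grouped and numbered by title, was sequenced from stranded, ribosome-depleted libraries, per the labels' protocols. The tools were Cuffdiff, Cufflinks, HISAT2 (2.0.4) and cutadapt (1.9.3), and the build was mm10, per the submitters' processing notes. The deposited table gave FPKM, computed by the authors per the file headers. It also gave a signal headed counts, in which the deposited values are estimated fragments divided by a library size factor. From 91.3 to 92.0% of the latter (below 2000 steps) were whole multiples of 1 step, within 0.05 of a step, and dividing by the step gave the fragments. A stranded kit was used, but no source used here says whether strand entered the counting.

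Rows of one symbol were summed and genes with FPKM of at least 0.5 in 4 samples were kept. Limma 3.58.1 in R 4.3.3 (eBayes with trend, pseudocount 1, 2-sided, Benjamini-Hochberg over 10943 genes) tested log2(FPKM + 1), a scale that understates changes of low genes. Every adjusted p is from it unless voom on fragments is named. Folds are ratios of mean FPKM or CPM. Starts are 1-based.

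The members and lists were chosen with earlier results of these data known. Named members are all called ones, those called by 1 measure only, the highest gene of each family and, in a family without a call, the one with the smallest p. Members near or below the level filter and those with a flagged sample were also named. Outside this rule, Josd1, Atxn3 and Bap1 were named beside related members, and Uchl4 was chosen after its values were seen. At most 2 called genes were named per context list. Cell type markers were named outside this rule, after their values were seen. Some genes of the lists are not reported here. Alternatives were other pseudocounts, filters, scalings and weights, a replicate block, rows kept apart, rows of shared loci left out, voom, and each library left out.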

Additional observations from a re-analysis of the deposited data

Results flagged for a closer look

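In 9 of 122 groups of 4 samples (61 members in db/db and in lean), 1 sample's gap to its nearest neighbour passed the 95% critical value of Dixon's ratio in FPKM, where chance gives about 5%. Tnfaip3 in lean 4 was at 0.969 FPKM, against 0.347 to 0.441 in the other lean samples, on 22.0 fragments. Usp2 in lean 3 was at 36.7 FPKM against 18.4 to 20.5. Usp22 in lean 3 was at 3.78 FPKM against 3.17 to 3.24, still below every db/db sample. Usp8, an endosomal enzyme that acts on receptors, was at 16.1 FPKM in db/db 1 against 11.7 to 12.1, and at 7.58 in lean 3 against 10.6 to 10.9. Usp30, a mitochondrial enzyme, was at 4.89 FPKM in lean 2 against 3.04 to 3.27. Usp45 in db/db 3 was at 1.69 FPKM against 2.45 to 2.50, Usp25 in db/db 4 at 5.91 against 5.59 to 5.63, and Josd1 in lean 2 at 6.47 against 8.19 to 8.22. These samples were kept in every test but those that leave them out.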

How the results depend on the processing

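Over all genes 2892 were called, against 2069 without rows that share a locus and 3173 with voom. The members called higher numbered 6 without a filter, 7 with median-ratio size factors, 6 after quantile normalization and 10 with voom, and those called lower 2, 3, 3 and 3. Leaving out 1 library gave 4 to 10 members higher, 1 to 3 lower, 2271 to 2650 genes over the table, 16 to 21 genes in the context lists and 17 to 25 members whose groups did not overlap. Of the 12 called members 9 were also called with voom, 7 without db/db 1 and 5 without db/db 4. The sign of Usp10 reversed with library weights (log2 fold change 0.0084, adjusted p = 0.975). Replicate numbers were shared between groups, but same-numbered samples did not deviate together (correlations -0.22, 0.029, 0.11 and -0.0093 across genes), and no sample correlated best with its own number. With a replicate block 2514 genes were called, 6 members higher and 2 lower, 7 of them among the 12. Precision is limited for members with few fragments, such as Tnfaip3 (22.0 to 126) and Uchl4 (17.0 to 52.0).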

Other observations

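Otud6b, an OTU enzyme linked to protein synthesis, was singled out after its values were seen. It was listed at 0.0138 FPKM in lean 1, on 0.8 estimated fragments, against 8.60 to 12.1 FPKM in the other lean samples and 9.51 to 14.7 in db/db. Its log2 fold change was 1.05 (SE 0.67, limma adjusted p = 0.276) with lean 1 and 0.19 without it (limma adjusted p = 0.503). Otub2, below the filter, had values close to 0 in 3 libraries beside up to 0.835 FPKM in others. Stambpl1 had a CPM per FPKM, scaled as above, of 0.423 in lean 2 and 1.88 to 2.32 in the other libraries, on 3 to 20 fragments.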
